A study of Homo sapiens with 6 samples.

Results

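MicroRNA host transcripts are the long RNAs from which microRNA hairpins are cut. The 6 followed here are MIR17HG (miR-17-92 cluster), MIR22HG (miR-22), MIR155HG (miR-155), DLEU2 (miR-15a and miR-16-1), HUWE1 (miR-98 and let-7f-2) and MIRLET7BHG (let-7a-3 and let-7b). They were chosen by gene name out of 57861 genes with a usable value in all libraries. Of the 6 names, 5 were listed as such. MIRLET7BHG was found by its gene identifier, ENSG00000197182, which the files list under the older name FLJ27365. Expression was measured by RNA sequencing in MOLP-8, a human line derived from multiple myeloma, a cancer of plasma cells. LIN28B KO cells carried lentiCRISPRv2 with a guide against LIN28B and control cells the same vector with a scrambled guide, both under puromycin selection, with 3 libraries per group. The sample titles abbreviate the targeted cells as KD, and the labels do not say whether they are a clone or a pool, or whether libraries came from separate cultures. P-values thus cover no more than the spread among these 6 libraries, and that spread may be technical.

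A host gene is transcribed as a long primary RNA, and the nuclear enzyme DROSHA cuts the microRNA hairpin out of an exon or an intron before DICER1 trims it to the mature strand. LIN28B binds let-7 precursors and blocks their maturation, so it acts after transcription of the host. MIR17HG is a classical transcriptional target of MYC and is amplified in B cell lymphomas. DLEU2 lies in the chromosome 13q14 region that is often deleted in chronic lymphocytic leukaemia and myeloma. The level of a host transcript is not that of its mature microRNA. The values here are of long RNA, and mature microRNAs were not analysed here.

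The 14 microRNA genes fall into 8 groups by seed, the bases 2 to 8 that pair with a target, shown in capitals. The mature strands are given because they show which hosts carry the same seed. They are from RefSeq, 5′ to 3′, and all 14 lie inside their host on its strand in GENCODE 29.
hsa-miR-17-5p: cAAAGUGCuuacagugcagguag
hsa-miR-20a-5p: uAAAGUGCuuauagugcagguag
hsa-miR-18a-5p: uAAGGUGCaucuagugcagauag
hsa-miR-19a-3p: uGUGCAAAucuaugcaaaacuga
hsa-miR-19b-3p: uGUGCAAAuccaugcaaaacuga
hsa-miR-92a-3p: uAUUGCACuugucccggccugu
hsa-miR-22-3p: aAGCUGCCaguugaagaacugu
hsa-miR-155-5p: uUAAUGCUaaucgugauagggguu
hsa-miR-15a-5p: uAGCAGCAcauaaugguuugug
hsa-miR-16-5p: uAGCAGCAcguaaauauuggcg
hsa-miR-98-5p: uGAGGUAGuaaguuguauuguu
hsa-let-7f-5p: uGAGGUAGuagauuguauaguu
hsa-let-7a-5p: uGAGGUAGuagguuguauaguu
hsa-let-7b-5p: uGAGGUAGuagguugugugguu

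MIR17HG carries 4 different seeds in a row, with hairpins from 91350605 to 91351391 on the plus strand of chromosome 13 (GRCh38.p14). They lie in an exon of 2 of its 3 GENCODE 29 transcripts and in an intron of the other. miR-15a and miR-16-1 lie in an intron of all 6 DLEU2 transcripts that span them, between 50048973 and 50049201 on the minus strand of chromosome 13. miR-98 and let-7f-2 lie in an intron of the 3 HUWE1 transcripts that span them, between 53556223 and 53557274 on the minus strand of chromosome X. let-7a-3 and let-7b lie in an exon of the 1 MIRLET7BHG transcript that spans them, between 46112749 and 46113768 on the plus strand of chromosome 22. The mature miR-22 strand lies at 1713914 to 1713935 on the minus strand of chromosome 17, in an exon of all 19 MIR22HG transcripts. The mature miR-155 strand lies at 25573983 to 25574006 on the plus strand of chromosome 21, in an exon of the single MIR155HG transcript. The let-7 seed is shared by HUWE1 and MIRLET7BHG, and 11 human mature microRNAs in the RefSeq table carry it. The seeds of miR-22 and miR-155 were carried by 1 mature microRNA each. miR-16-5p, miR-19b-3p, miR-92a-3p and let-7f-5p are encoded at 2 loci each and let-7a-5p at 3.

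LIN28B itself averaged 7.47 ± 1.42 FPKM in LIN28B KO cells and 24.4 ± 1.07 FPKM in control cells (SD, n = 3 each), so that its RNA was kept at 30.7% of the control mean (limma log2 fold change -1.66, SE 0.17, adjusted p = 0.0207). Without LIN28B KO library 3 its log2 fold change was -1.50 (limma adjusted p = 0.00957), and dropping any of the other 5 libraries lost the call, with limma adjusted p reaching 0.185. FPKM is a fragment number scaled to transcript length and to library size, so levels of different genes can be compared. The files hold no read numbers. Relative depth, estimated from the deposited bounds of 1238 low genes, was 0.533 to 0.717 in the LIN28B KO libraries and 0.718 to 1 in the controls. LIN28B KO library 3 stood apart: it had 17676 genes with at least 1 FPKM, against 15932 and 15922 in LIN28B KO libraries 1 and 2 and 15356 to 15430 in the controls. The nuclear RNA MALAT1 was at 892 FPKM in it, against 259.3 to 331 FPKM in the other 5 libraries. The tests of the hosts and of genes beside them are therefore also given without it. The plasma cell markers SDC1, XBP1, PRDM1, IRF4, TNFRSF17, MZB1, CD38 and SLAMF7 were all present, with summed levels of 2900, 2944 and 1989 FPKM in LIN28B KO libraries 1 to 3 and 2966 to 3032 FPKM in control. The sum hides differences: 4 of these 8 were lower and SLAMF7 higher in all LIN28B KO libraries, beside 20.1% and 7.61% of all tested genes. SLAMF7 was at 92.8, 89.85 and 66.3 FPKM in LIN28B KO and at 51.6, 41.9 and 49.7 FPKM in control. With 6 libraries 0 of the 8 passed. Without library 3 SLAMF7 alone passed (1.91-fold higher, limma adjusted p = 0.0482), beside 0.417% of all genes. The part of these markers in the results below was not tested. In bulk RNA, fewer cells of a type and less RNA per cell cannot be told apart. Of 11 listed markers of other blood and tissue cells, 7 stayed below 1 FPKM in every library, with CD3D and HBA1 listed at 0 in all 6. Of the other 4, the keratin KRT8 was at 69.8 to 94.0 FPKM in LIN28B KO and at 111 to 122 FPKM in control, and LYZ at 0.598 to 1.13 FPKM in LIN28B KO and 0.352 to 0.692 FPKM in control. The collagen COL1A1 was at 1.43, 1.61 and 4.77 FPKM in LIN28B KO libraries 1 to 3 and at 0.761 to 1.26 FPKM in control. CD3E was at 0.849 to 1.27 FPKM in LIN28B KO and 0.697 to 0.817 FPKM in control. Both were higher and KRT8 was lower in all LIN28B KO libraries, beside 7.61% and 20.1% of all tested genes. CD3E was too low to be tested.

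The levels of the 6 hosts spanned a wide range. In LIN28B KO the order of means was HUWE1 at 56.6 FPKM, DLEU2 at 14.0, MIR22HG at 6.50, MIR17HG at 4.05, MIRLET7BHG at 1.30 and then MIR155HG, between 0 and 0.351 FPKM. In control it was HUWE1 at 56.7 FPKM, DLEU2 at 18.4, MIR22HG at 5.38, MIR17HG at 5.33, MIRLET7BHG at 0.724 and then MIR155HG, between 0.0620 and 0.0851 FPKM. The values of MIR22HG and MIR17HG overlapped in control and did not overlap in LIN28B KO. All other neighbours in the order were separate within each group.

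None of the hosts passed the test. Of the 5 that had at least 1 FPKM in at least 3 libraries and were tested, 0 passed an adjusted p of 0.05 in limma with 6 libraries, and 0 without LIN28B KO library 3. Over all 15803 genes tested 0.0949% passed with 6 libraries (0.0633% higher and 0.0316% lower in LIN28B KO), and 0.417% of 15336 without library 3 (0.15% higher and 0.267% lower). At an unadjusted p under 0.05, 1 of the 5 passed with 6 libraries, DLEU2, against 13.7% of all genes. The groups did not overlap for 4 of the 5: MIR17HG and DLEU2 were lower and MIR22HG and MIRLET7BHG higher in all 3 LIN28B KO libraries. MIRLET7BHG reached 1 FPKM in all 3 LIN28B KO libraries but in only 1 control library. It thus entered this count through the group where it was higher. Over all tested genes the groups did not overlap for 27.7%, of which 20.1 percentage points were lower and 7.61 higher in LIN28B KO. With 3 libraries a group the smallest p of a two-sided exact permutation test is 0.1, and each of these 4 hosts reached it.

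**Figure D1:**
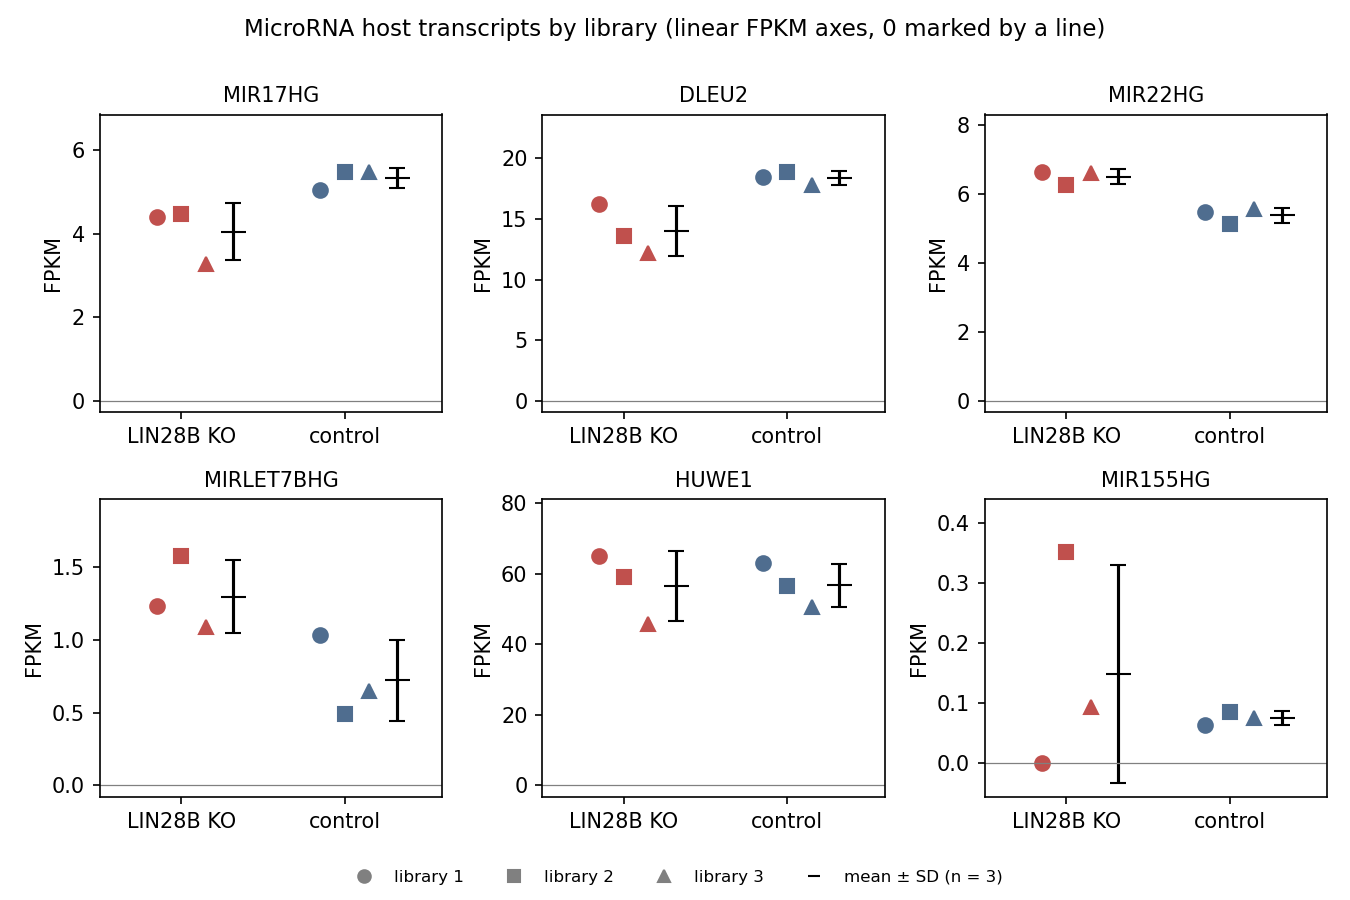
FPKM of the 6 host transcripts by library, LIN28B KO left and control right, with the mean ± SD (n = 3) beside the points. The 3 LIN28B KO libraries lie below all controls for MIR17HG and DLEU2 and above all controls for MIR22HG and MIRLET7BHG, while HUWE1 and MIR155HG overlap.

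MIR17HG makes the miR-17-92 cluster, whose members hold back cell cycle inhibitors and the proapoptotic BCL2L11. Its GRCh37 locus is chr13:92000074-92006833 (ENSG00000215417, a non-coding gene with no other listed gene across it). It stood at 4.40, 4.48 and 3.26 FPKM in LIN28B KO libraries 1 to 3, against 5.05, 5.48 and 5.47 FPKM in control libraries 1 to 3. The LIN28B KO mean was 4.05 ± 0.679 FPKM and the control mean 5.33 ± 0.245 FPKM (SD, n = 3 each), 75.9% of control. The limma log2 fold change was -0.37 (SE 0.17, 95% interval -0.77 to 0.03, adjusted p = 0.376), on the log2(FPKM + 0.5) scale used throughout, beside a median of -0.13 over all tested genes. Library 3 was the lowest, and leaving it out gave -0.24 (SE 0.11, adjusted p = 0.296). Of all tested genes, 16.1% had a log2 fold change at or below that of MIR17HG.

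The deposited bounds limit how far the MIR17HG values can be read. In control library 1 they ran from 3.02 to 7.08 FPKM, but in control libraries 2 and 3 from 0 to 79.4 and from 0 to 70.8 FPKM. In LIN28B KO they ran from 1.29 to 7.502, from 0.823 to 8.14 and from 0.528 to 6.002 FPKM. All 6 estimates lay within the bounds of control library 1.

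DLEU2, the non-coding host of miR-15a and miR-16-1, which restrain BCL2 and cyclins, lies on chromosome 13 at 50601269 to 50699856 of GRCh37 (ENSG00000231607). Its level was 16.2, 13.6 and 12.2 FPKM in LIN28B KO libraries 1 to 3, against 18.5, 18.9 and 17.8 FPKM in control libraries 1 to 3. The controls were close together and the LIN28B KO libraries spread over a wider range below them. The means were 14.0 ± 2.05 FPKM in LIN28B KO and 18.4 ± 0.560 FPKM in control (SD, n = 3 each), 76.1% of control. DLEU2 had a log2 fold change of -0.39 (SE 0.14, 95% interval -0.73 to -0.05), with an unadjusted p of 0.0289 and an adjusted p of 0.341 in limma. Without library 3 it was -0.30 (SE 0.10, adjusted p = 0.198). The deposited bounds were 13.3 to 19.1, 10.7 to 16.5 and 9.86 to 14.5 FPKM in LIN28B KO and 16.2 to 20.8, 16.05 to 21.7 and 15.3 to 20.3 FPKM in control; those of LIN28B KO library 3 lay below all control bounds.

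DLEU2 shares its locus with DLEU1, another non-coding gene of the deleted region, over 43550 bases, and strand was not stated for these values, so reads of overlapping parts cannot be assigned with certainty. DLEU1 was at 20.6, 17.7 and 22.9 FPKM in LIN28B KO libraries 1 to 3, against 26.1, 20.6 and 26.0 FPKM in control libraries 1 to 3. Its groups overlapped (log2 fold change -0.24, SE 0.16, limma adjusted p = 0.479), and without library 3 it had -0.33 (SE 0.14, adjusted p = 0.272). The ratio of DLEU2 to DLEU1 within a library was 0.695 ± 0.142 in LIN28B KO and 0.769 ± 0.129 in control (SD, n = 3 each; exact two-sided permutation p = 0.6), with a LIN28B KO mean of 0.777 without library 3. TRIM13, a neighbouring ubiquitin ligase gene, was at 12.6, 15.0 and 9.93 FPKM in LIN28B KO and at 10.1, 9.43 and 12.3 FPKM in control. Its log2 fold change was 0.22 (SE 0.19, limma adjusted p = 0.567), and 0.37 (SE 0.15, adjusted p = 0.247) without library 3. The ratio of DLEU2 to TRIM13 was 1.28, 0.903 and 1.23 in LIN28B KO libraries 1 to 3, against 1.83, 2.004 and 1.45 in control libraries 1 to 3. All LIN28B KO libraries were lower, with means of 1.14 ± 0.205 in LIN28B KO and 1.76 ± 0.282 in control (SD, n = 3 each; exact two-sided permutation p = 0.1), and 1.09 in LIN28B KO without library 3. The exact two-sided permutation p of 0.1 for the ratio to TRIM13 is the smallest possible, and DLEU2 alone had already separated the groups. That ratio is thus not independent of the DLEU2 values. The hairpin row MIR16-1 was listed at 0 in all 6 libraries, and MIR15A has no row of its own.

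MIR22HG, the host of miR-22, a microRNA with targets in chromatin and growth control, lies on chromosome 17 at 1614805 to 1620468 of GRCh37 (ENSG00000186594, non-coding). It stood at 6.64, 6.25 and 6.60 FPKM in LIN28B KO libraries 1 to 3, against 5.46, 5.13 and 5.54 FPKM in control libraries 1 to 3. The libraries of a group lay close together, and library 3 was not apart from the other LIN28B KO libraries here. The means were 6.50 ± 0.212 FPKM in LIN28B KO and 5.38 ± 0.219 FPKM in control (SD, n = 3 each), 121% of control. MIR22HG had a log2 fold change of 0.25 (SE 0.13, 95% interval -0.06 to 0.56, limma adjusted p = 0.411), and 0.24 (SE 0.10, adjusted p = 0.281) without library 3. Of all tested genes, 15.6% had a log2 fold change at or above it. The deposited bounds started at 0 in all 6 libraries and reached 51.2 to 66.1 FPKM in LIN28B KO and 37.6 to 50.2 FPKM in control, far wider than the spread between libraries. WDR81, a protein-coding gene that overlaps MIR22HG over 652 bases, was at 17.2 ± 3.84 FPKM in LIN28B KO and 18.1 ± 2.53 FPKM in control (SD, n = 3 each; log2 fold change -0.08, SE 0.20, limma adjusted p = 0.852). Its sign turned without library 3, at 0.11 (SE 0.13, limma adjusted p = 0.690).

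**Figure D2:**
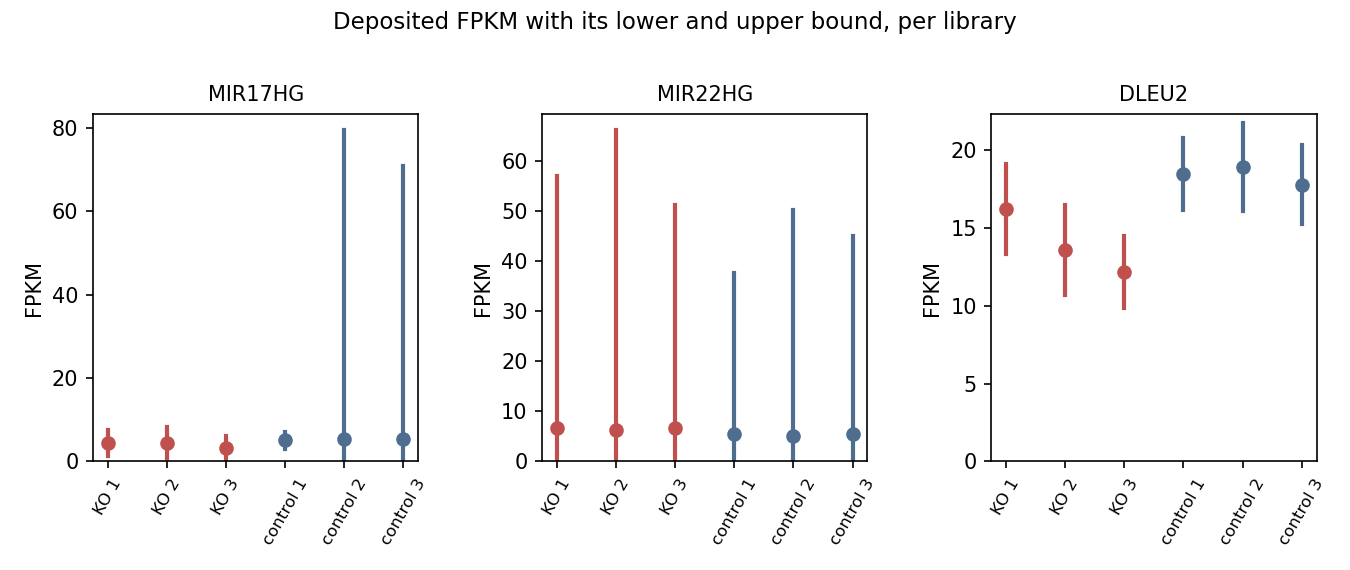
Deposited FPKM (points) with lower and upper bounds (lines) per library for MIR17HG, MIR22HG and DLEU2, LIN28B KO left of control. Bounds from 0 to 79.4 FPKM for MIR17HG and from 0 to 66.1 FPKM for MIR22HG dwarf the differences between groups, and those of DLEU2 run from 9.86 to 21.7 FPKM.

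MIR17HG and MIR22HG had almost the same level in control, so their ratio within a library is a measure that scaling of the whole library cannot move. The ratio of MIR22HG to MIR17HG was 1.51, 1.40 and 2.02 in LIN28B KO libraries 1 to 3, against 1.08, 0.936 and 1.01 in control libraries 1 to 3. All 3 LIN28B KO libraries were above all controls, with means of 1.64 ± 0.334 in LIN28B KO and 1.01 ± 0.0728 in control (SD, n = 3 each; exact two-sided permutation p = 0.1, the smallest possible). Without library 3 the LIN28B KO mean was 1.45. This pair was chosen after its values had been seen. Since MIR22HG was higher and MIR17HG lower in all LIN28B KO libraries, their ratio had to separate the groups. Its exact two-sided permutation p of 0.1 thus adds nothing to the values of the 2 hosts. The wide deposited bounds of both hosts apply to the ratio too. A trend with level was also removed with cyclic loess scaling, which brought the median of all genes to 0.00. There MIR17HG had a log2 fold change of -0.31 (SE 0.11, limma adjusted p = 0.234), DLEU2 of -0.23 (SE 0.09, adjusted p = 0.269) and MIR22HG of 0.34 (SE 0.13, adjusted p = 0.249). These 3 of the 5 hosts had groups that did not overlap after that scaling, beside 27% of all tested genes. None of the 5 passed limma's adjusted p there, where 0.702% of all genes did, 0.361% higher and 0.342% lower in LIN28B KO.

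MIRLET7BHG, a non-coding gene on chromosome 22 at 46449749 to 46509808 of GRCh37, hosts let-7a-3 and let-7b. It was low, at 1.23, 1.58 and 1.09 FPKM in LIN28B KO libraries 1 to 3, against 1.03, 0.491 and 0.649 FPKM in control libraries 1 to 3. All 3 LIN28B KO libraries were above all controls, by little in the case of library 3 and control library 1. The deposited bounds overlapped between the groups. They were 0.617 to 1.85, 0.655 to 2.50 and 0.632 to 1.54 FPKM in LIN28B KO. In control they were 0.527 to 1.54, 0.108 to 0.875 and 0.284 to 1.01 FPKM. MIRLET7BHG passed the filter on low values through all 3 LIN28B KO libraries and 1 control library. The means were 1.30 ± 0.251 FPKM in LIN28B KO and 0.724 ± 0.278 FPKM in control (SD, n = 3 each), 179% of control. MIRLET7BHG had a log2 fold change of 0.57 (SE 0.27, 95% interval -0.08 to 1.21, limma adjusted p = 0.392), and 0.65 (SE 0.26, adjusted p = 0.258) without library 3. After cyclic loess scaling of the 6 libraries it was 0.45 (SE 0.25, limma adjusted p = 0.386) and the groups overlapped.

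Other transcripts lie across the MIRLET7BHG locus. RP6-109B7.3, which shares 3342 bases with it at one end, was at 33.5, 29.2 and 21.0 FPKM in LIN28B KO and at 26.1, 23.4 and 34.6 FPKM in control, far above the host. Its groups overlapped (log2 fold change -0.01, SE 0.22, limma adjusted p = 0.981), and its value was 0.17 (SE 0.18, adjusted p = 0.632) without library 3. The ratio of RP6-109B7.3 to MIRLET7BHG within a library was 27.2, 18.5 and 19.3 in LIN28B KO and 25.2, 47.7 and 53.4 in control. The groups of this ratio overlapped (exact two-sided permutation p = 0.2). PPARA, the nearby gene of a nuclear receptor of fatty acid metabolism, was at 5.12, 4.95 and 5.69 FPKM in LIN28B KO and at 3.55, 3.03 and 3.70 FPKM in control. All 3 LIN28B KO libraries were higher (log2 fold change 0.55, SE 0.16, limma adjusted p = 0.284; 0.50, SE 0.13, adjusted p = 0.143 without library 3). Of 6 tested neighbours of the 6 hosts, 0 passed with 6 libraries, with a median log2 fold change of -0.16 against -0.13 over all genes. In all LIN28B KO libraries 1 of them, PPARA, was higher and 2, MRPL39 and HSD17B10, were lower. Over all tested genes 7.61% were higher and 20.1% lower in this way.

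HUWE1 codes for a protein, a large ubiquitin ligase that marks MCL1, p53 and MYC proteins. Its GRCh37 locus is chrX:53559057-53713673 (ENSG00000086758). It stood at 64.9, 59.1 and 45.7 FPKM in LIN28B KO libraries 1 to 3, against 62.9, 56.5 and 50.6 FPKM in control libraries 1 to 3. The groups overlapped throughout, with means of 56.6 ± 9.83 FPKM in LIN28B KO and 56.7 ± 6.16 FPKM in control (SD, n = 3 each; exact two-sided permutation p = 1). HUWE1 had a log2 fold change of -0.01 (SE 0.17, 95% interval -0.41 to 0.39, limma adjusted p = 0.978). Its sign was positive without library 3, at 0.13 (SE 0.11, adjusted p = 0.539), and with cyclic loess scaling of the 6 libraries, at 0.20 (SE 0.09, 95% interval -0.02 to 0.42, adjusted p = 0.306). The hairpin row MIRLET7F2 was listed at 41.7 FPKM in LIN28B KO library 3 and at 0 in the other 5 libraries, and MIR98 at 0 in all 6.

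MIR155HG, also called BIC, is induced by NF-kB and antigen receptor signals in B cells and is the host of miR-155. Its GRCh37 locus is chr21:26934221-26947480 (ENSG00000234883). It was listed at 0, 0.351 and 0.0921 FPKM in LIN28B KO libraries 1 to 3, against 0.0620, 0.0851 and 0.0747 FPKM in control libraries 1 to 3. No library reached 1 FPKM, so it was under the filter and not tested. The deposited upper bounds, up to 2.12 FPKM in LIN28B KO and 1.39 FPKM in control, are many times the estimates, so a difference was not detectable at this depth (exact two-sided permutation p = 0.7).

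**Figure D3:**
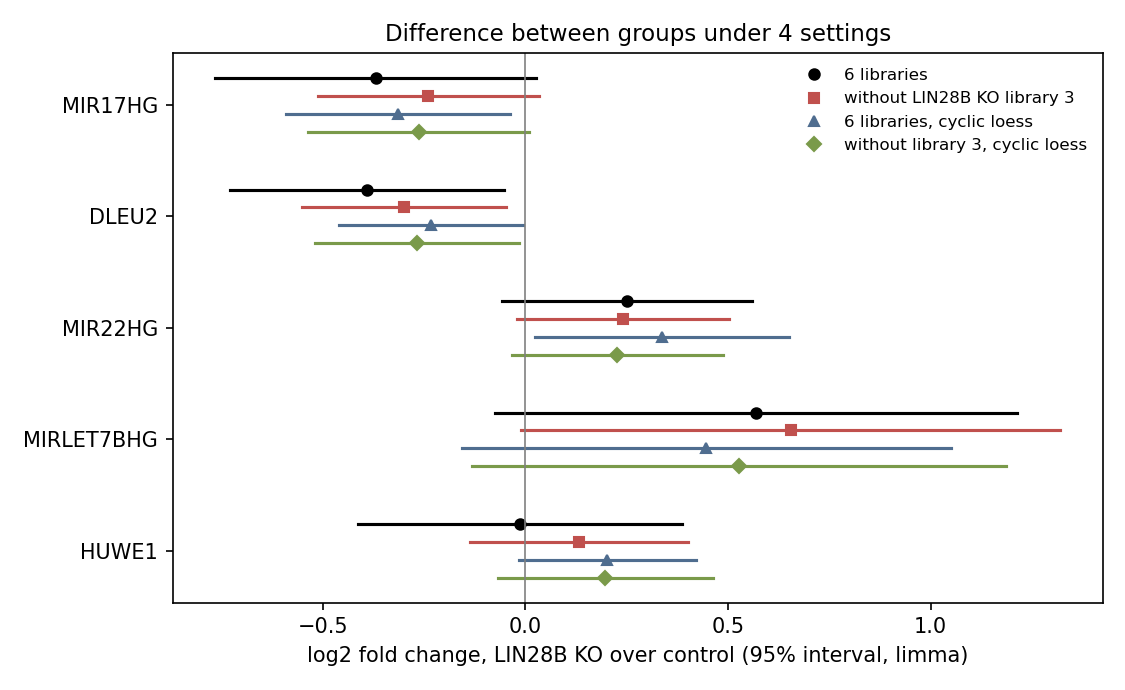
Log2 fold change of LIN28B KO over control (x axis) with its 95% interval from limma for the 5 tested hosts (rows) under 4 settings. MIR17HG and DLEU2 lie left of 0 and MIR22HG and MIRLET7BHG right of 0 in each setting, and HUWE1 changes sign, from -0.01 with 6 libraries to 0.20 after cyclic loess.

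Hairpin rows were too sparse to follow the hosts. Of the 14 microRNA genes inside the 6 hosts, 5 had a row in the files. MIRLET7A3 and MIRLET7B were at 0 in all LIN28B KO libraries and above 0 in 1 control library each, at 18.3 and 15.8 FPKM. Among all 1376 numbered microRNA and let-7 rows, 8.79% to 12.1% were above 0 in the LIN28B KO libraries and 10.2% to 12.3% in the controls. MIRLET7D was above 0 in 5 libraries, at 107, 42.7 and 32.8 FPKM in LIN28B KO and at 46.0, 97.9 and 0 FPKM in control, with groups that overlapped. MIR92B, whose mature strand shares the seed of miR-92a-3p, was at 10.0, 12.1 and 17.4 FPKM in LIN28B KO and listed at 0 in all controls. These 2 rows were named after their values had been seen. A hairpin is shorter than a typical fragment of such a library, so a single fragment gives a high FPKM there.

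Hosts of other microRNAs show which seeds are also encoded elsewhere. MCM7, a subunit of the replicative helicase, carries miR-106b, miR-93 and miR-25 in an intron, and SMC4, a condensin subunit, carries miR-15b and miR-16-2. Their mature strands have the seeds of miR-17, miR-92a and miR-15a, again in capitals.
hsa-miR-106b-5p: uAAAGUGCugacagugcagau
hsa-miR-93-5p: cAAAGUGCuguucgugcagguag
hsa-miR-25-3p: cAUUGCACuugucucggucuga
hsa-miR-15b-5p: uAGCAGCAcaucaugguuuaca

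MCM7 was at 77.7, 89.0 and 58.6 FPKM in LIN28B KO libraries 1 to 3, against 118, 109 and 120 FPKM in control libraries 1 to 3. SMC4 was at 140.0, 145 and 118 FPKM in LIN28B KO and at 172, 185 and 198 FPKM in control. All LIN28B KO libraries were below all controls for both, as for MIR17HG and DLEU2, which carry the same seeds. Over all tested genes this held for 20.1%. miR-424 and miR-497 also have the miR-15a seed. MIR503HG, which hosts miR-424, was lower in all LIN28B KO libraries as well. MIR497HG overlapped, at 3.75, 3.10 and 2.51 FPKM in LIN28B KO and at 3.71, 2.89 and 3.61 FPKM in control. With 6 libraries neither MCM7 nor SMC4 passed, with log2 fold changes of -0.64 (SE 0.17) and -0.46 (SE 0.14) and limma adjusted p of 0.278 and 0.298. Nor did they pass in the fit of all genes without library 3 (limma adjusted p = 0.0730 and 0.0841). In a fit of 11308 protein-coding genes without library 3, added after the data had been seen, which called 4.09% of genes (1.08% higher and 3.02% lower in LIN28B KO), MCM7 fell 1.39-fold (limma adjusted p = 0.0330) and SMC4 fell 1.30-fold (adjusted p = 0.0396). Both missed the threshold there with cyclic loess scaling, which called 2.25% of genes, 1.08% higher and 1.17% lower (limma adjusted p = 0.0550 and 0.0934). MCM7 and SMC4 are themselves genes of the cell cycle, and the part of that in their levels was not tested.

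**Figure D4:**
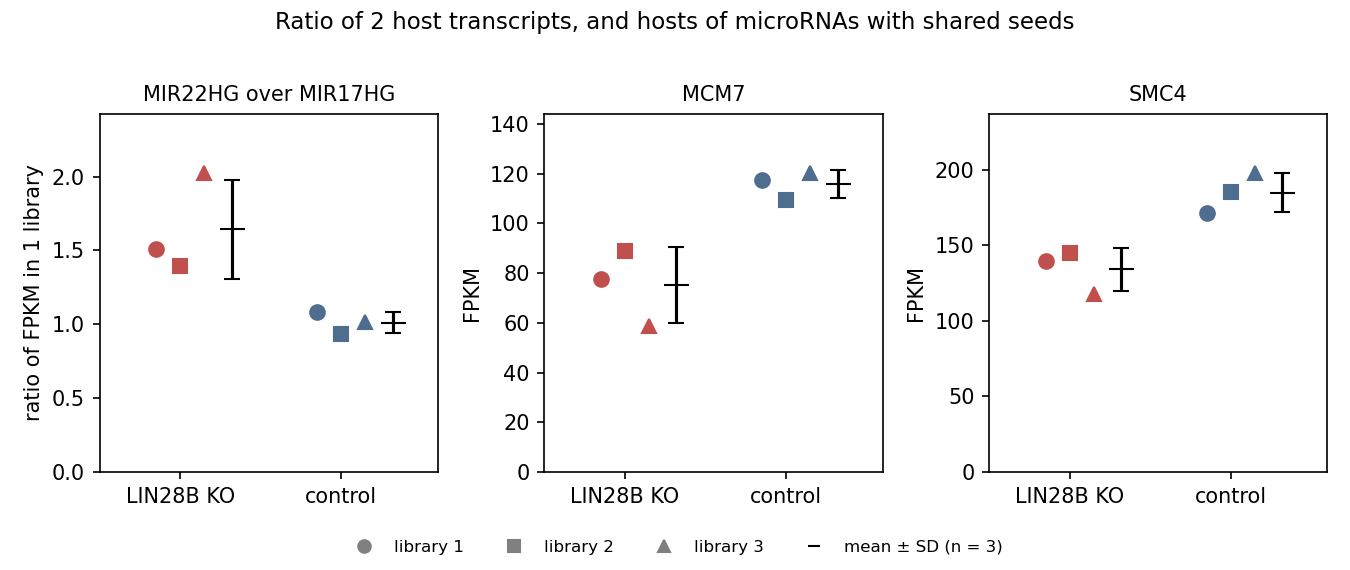
Left, the ratio of MIR22HG to MIR17HG FPKM within each library; middle and right, FPKM of MCM7 and SMC4, hosts of microRNAs that share seeds with miR-17, miR-92a and miR-15a. LIN28B KO is left of control in each panel, with mean ± SD (n = 3); the ratio is 1.40 to 2.02 in LIN28B KO and 0.936 to 1.08 in control, and MCM7 and SMC4 lie below all controls.

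Of 48 listed hosts of other microRNAs, 31 were tested and 0 passed with 6 libraries, with 9 lower and 1 higher in all LIN28B KO libraries, beside 20.1% lower and 7.61% higher over all tested genes. Without library 3, 0 of 31 passed. Their median log2 fold change was -0.20 against -0.13 over all genes, and -0.08 against -0.02 without library 3. MCM7 and SMC4 were the 2 calls among 26 tested in the protein-coding fit without library 3, both lower, beside 4.09% of all genes called there. MIR503HG, the non-coding host of miR-424 and miR-503, was at 178, 185 and 120 FPKM in LIN28B KO and at 219.8, 209.9 and 213 FPKM in control. It did not pass (log2 fold change -0.44, SE 0.19, limma adjusted p = 0.367), and without library 3 its value was -0.24 (SE 0.05, adjusted p = 0.0884). NFYC, a transcription factor subunit that carries miR-30e, had a log2 fold change of -0.42 (SE 0.21, limma adjusted p = 0.397), and of -0.19 (SE 0.07, adjusted p = 0.232) without library 3. MIRLET7DHG, beside the let-7a-1, let-7f-1 and let-7d cluster, was named after its values had been seen; it stood at 1.55, 2.14 and 2.34 FPKM in LIN28B KO and at 2.40, 2.20 and 2.34 FPKM in control.

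Genes that process microRNAs or act with them showed 0 calls among 22 tested with 6 libraries, and 0 without library 3. Their median log2 fold change with 6 libraries was -0.20 against -0.13 over all genes. In all LIN28B KO libraries 8 were lower and 0 higher, beside 20.1% and 7.61% of all tested genes. DROSHA and DICER1 were among the 8, with log2 fold changes of -0.44 and -0.32 (limma adjusted p = 0.354 and 0.392). Without library 3 these were -0.50 and -0.34 (limma adjusted p = 0.210 and 0.278). In the added protein-coding fit without library 3, RAN, the GTPase that drives export of precursors, fell 1.22-fold (limma adjusted p = 0.0298) and HNRNPA1, an RNA-binding protein that aids processing of pri-miR-18a, fell 1.23-fold (adjusted p = 0.0289), 2 of 22 beside 4.09% of all genes. In the fit of all genes without library 3 both missed the threshold (limma adjusted p = 0.0627 each). Both also missed the threshold there with cyclic loess scaling (limma adjusted p = 0.0834 and 0.0677). KHSRP, a let-7 processing factor, had in the protein-coding fit a log2 fold change of -0.27 (SE 0.07, limma adjusted p = 0.0883). ZCCHC6, a uridylyl transferase, had one of 0.47 (SE 0.14, limma adjusted p = 0.106).

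Known regulators of the host genes were also followed. MYC, which activates MIR17HG, was at 171, 174 and 112 FPKM in LIN28B KO and at 215, 211 and 224 FPKM in control, and fell 1.26-fold in the protein-coding fit without library 3 (limma adjusted p = 0.0298; 0.0693 with cyclic loess). In the fit of all genes without library 3 it missed the threshold (limma adjusted p = 0.0622). It was the only call among 10 regulators in the protein-coding fit, beside 4.09% of all genes, and 0 passed in the other fit without library 3 or with 6 libraries. E2F1 and E2F3, which bind the MIR17HG promoter, had log2 fold changes of -0.39 (SE 0.09, adjusted p = 0.0596) and -0.16 (SE 0.09, adjusted p = 0.319) in the protein-coding limma fit. JUNB, a component of AP-1, had one of -0.15 (SE 0.08, limma adjusted p = 0.329).

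Published targets of the hosted microRNAs, listed from general knowledge, showed calls in both directions. With 6 libraries 0 passed of 20 tested miR-17-92 targets, 13 miR-155 targets, 13 miR-15/16 targets and 12 miR-22 targets, with medians of -0.01, 0.09, -0.23 and -0.03 against -0.13 over all genes. Without library 3 the medians were 0.01, 0.12, -0.13 and 0.02 against -0.02, and 1 of 20, 0 of 13, 0 of 13 and 0 of 12 passed in the fit of all genes, beside 0.417% of all genes. The other calls named here come only from the added protein-coding fit. In the protein-coding fit without library 3, CDKN1A, a cell cycle inhibitor on the miR-17-92 and miR-22 lists, rose 1.27-fold (limma adjusted p = 0.0266), although library 3 stood at 162 FPKM against 197 to 208 FPKM in the controls. E2F2, an activator of S phase genes on the miR-17-92 list, fell 1.498-fold (limma adjusted p = 0.0289), to 27.8, 25.7 and 21.5 FPKM in LIN28B KO, against 39.8, 37.9 and 43.5 FPKM in control. TXNIP, an inhibitor of thioredoxin on the same list, rose in the fit of all genes without library 3 (log2 fold change 0.53, SE 0.05, limma adjusted p = 0.0304). In library 3 TXNIP stood at 144.6 FPKM, near the control range of 134.8 to 141.6 FPKM. Its identifier was not in the protein-coding fit, so 19 of this list were tested there.

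TP53INP1, a p53-induced gene and miR-155 target, was at 23.3, 24.8 and 19.5 FPKM in LIN28B KO and averaged 17.1 ± 1.02 FPKM (SD, n = 3) in control, and it rose 1.39-fold in the protein-coding fit without library 3 (limma adjusted p = 0.0386). CCND3, a D-type cyclin on the miR-15/16 list, fell 1.40-fold in that fit (limma adjusted p = 0.0475), with 16.6, 17.3 and 10.9 FPKM in LIN28B KO against 24.4, 21.6 and 25.7 FPKM in control. ESR1, the oestrogen receptor on the miR-22 list, rose 1.45-fold (limma adjusted p = 0.0473), while its library 3 value of 11.5 FPKM lay within the control range of 10.2 to 11.8 FPKM. With cyclic loess CDKN1A, E2F2 and TP53INP1 kept an adjusted p under 0.05 in limma (0.0220, 0.0387 and 0.0442), and CCND3 and ESR1 did not (0.0717 and 0.0533). Counts of calls were 2 of 19, 1 of 12, 1 of 13 and 2 of 12 for the miR-17-92, miR-155, miR-15/16 and miR-22 lists in the protein-coding fit, beside 4.09% of all genes there. In the fit of all genes without library 3 the limma adjusted p was 0.0607 for CDKN1A, 0.0625 for E2F2, 0.0763 for TP53INP1, 0.0906 for CCND3 and 0.0906 for ESR1.

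Genes whose values ran most like those of a host over the 6 libraries were found by Pearson correlation of log2(FPKM + 0.5) among 9509 named genes with a mean of at least 5 FPKM. This is a description over 6 libraries that share 1 group difference and the trend of library 3. MIR17HG was most like TMED8, PUF60 and ATG3 (r = 0.999, 0.999 and 0.998). DLEU2 was most like NSA2, COPG2 and RRM1 (r = 0.998, 0.996 and 0.996); RRM1, the large subunit of ribonucleotide reductase, was at 67.0, 51.9 and 40.8 FPKM in LIN28B KO and at 83.0, 91.1 and 82.5 FPKM in control. MIR22HG was most like CCPG1, ABL2 and PDE4DIP (r = 0.978, 0.975 and 0.972), and MIRLET7BHG was most like SOS1, AFF4 and KANSL1L (r = 0.990, 0.987 and 0.985). HUWE1 was most like CD63, TYK2 and LARGE (r = 0.992, 0.991 and 0.984), and the groups overlapped for all 3. Among the hosts themselves MIR17HG and DLEU2 had r = 0.907, and MIR17HG and MIR22HG r = -0.834.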

How the data were processed

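Each library came as 1 table deposited by the authors, holding an FPKM value, its bounds and a status for every gene, per the file headers. TopHat2, HTSeq and cutadapt, and the build GRCh37, are named in the submitters' processing notes; their roles and versions, the strand setting and the annotation were not given in the sources used here. Rows of 108 genes listed more than once were summed and 25 genes with a failed estimate left out, none of them a host. In R 4.3.3, limma 3.58.1 fitted log2(FPKM + 0.5), letting variance follow level, on genes of at least 1 FPKM in at least 3 libraries, with Benjamini-Hochberg adjustment over all genes. Fold changes on this scale understate those of low genes. What the deposited bounds cover is not stated, and read numbers are unknown; relative depth was inferred from the bounds. The protein-coding fit without LIN28B KO library 3 used GENCODE 29 identifiers and was added after seeing the data. The limma fit was tested on simulated log2 values. Hosts and lists were chosen with earlier results of these data known. Named genes are the hosts, genes across them, the 3 most correlated genes per host, and, per list, called genes and those with the smallest p, some of which are left out. Loci are the files' own in GRCh37, as 1-based starts; sequences and their positions are RefSeq's in GRCh38.p14, and exons are those of GENCODE 29.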

Additional observations from a re-analysis of the deposited data

How the results depend on the processing

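MIR17HG, DLEU2, MIR22HG and MIRLET7BHG kept their direction and did not pass the threshold in all 14 alternatives run for each. Their log2 fold changes ranged from -0.44 to -0.24, from -0.50 to -0.23, from 0.22 to 0.34 and from 0.42 to 0.80. HUWE1 turned positive with quantile normalization (0.16), cyclic loess (0.20), without LIN28B KO library 3 (0.13; 0.20 with cyclic loess), in the protein-coding fit without it (0.13; 0.20 with cyclic loess) and without control library 1 (0.07); leaving out single libraries gave -0.12 to 0.13. The cause was not tested. MIR155HG ranged from -0.08 to 0.31, not tested. The 15 calls of the fit with 6 libraries became 28 with quantile normalization, 111 with cyclic loess, 6 with no filter, and 4 to 64 when single libraries were left out, 64 being without LIN28B KO library 3, where cyclic loess gave 72. The added protein-coding fit gave 463 calls (1.08% of genes higher and 3.02% lower) and 254 with cyclic loess (1.08% higher and 1.17% lower). LIN28B lost its call with no filter (log2 fold change -1.66, limma adjusted p = 0.142) and on dropping any one of the 5 libraries besides LIN28B KO library 3; leaving out each in turn gave -1.74 to -1.50, with adjusted p up to 0.185. Same-numbered libraries did not deviate together over all tested genes (correlations of -0.0213, 0.0437 and -0.0327). This gave no sign of pairing by number, but it cannot exclude a tie that touches few genes. MIR600HG was high in library 2 of both groups and LINC00478 in library 3 of both groups. With the replicate block the limma adjusted p was 0.441 for DLEU2, 0.491 for MIR17HG, 0.549 for MIR22HG, 0.505 for MIRLET7BHG, 0.978 for HUWE1 and 0.0604 for LIN28B (-1.66), with 13 calls in all. At the depth of these libraries the bounds of MIR155HG reach 0 in all 6.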

Other observations

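Among the hosts of other microRNAs, 2 had 1 or 2 libraries far from the rest. C1orf132, beside miR-29b-2 and miR-29c, stood at 41.0 FPKM in LIN28B KO library 2 and at 0.0843 to 0.176 FPKM in the other 5 libraries. MIR600HG stood at 27.2 FPKM in LIN28B KO library 2 and 17.1 FPKM in control library 2, against 3.65 to 5.24 FPKM in the other 4 libraries. LINC00478, the host of let-7c, miR-99a and miR-125b-2, was at 4.17, 4.96 and 11.01 FPKM in LIN28B KO libraries 1 to 3 and at 5.43, 4.57 and 9.22 FPKM in control libraries 1 to 3. These genes were named after their values had been seen.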
